A study of Rattus norvegicus with 12 samples.

Results

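The genes described here encode the subunits of the mitochondrial respiratory chain and of the ATP synthase in cultured heart muscle cells. The set was proposed with earlier results of these data known, and its members were then found by symbol: a probe set belonged where its single gene symbol named a subunit of complex I (Nduf), complex II (Sdh), complex III (Uqcr), cytochrome c (Cycs), complex IV (Cox, families 4 to 8) or the ATP synthase, complex V (Atp5). This gave 87 probe sets for 77 genes, out of 14497 genes with a probe set of their own. Of the 77 genes, 32 belonged to complex I, 4 to complex II, 7 to complex III, 1 to cytochrome c, 17 to complex IV and 16 to complex V. For the 10 genes with several probe sets, the one with the highest mean stood for the gene. After a filter that left out probe sets with a mean log2 value at or below 4.78, the 40th percentile, 74 of the 77 genes remained among 10025 genes tested. The 3 below the filter were Cox4i2, Cox8c and Cox6c-ps1, and they are given without a test. Cyc1, Cox7a1, Cox6b1 and the 13 subunits encoded by mitochondrial DNA were not analysed here.

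The 12 samples, 3 per group, were heart muscle cells taken from the ventricles of newborn Wistar rats, grown in culture and measured on Affymetrix rat gene arrays. The groups were cells given adenovirus for mef2Cγ+ (γ+), for mef2Cγ- (γ-) or for mef2Cγ+23/24 (23/24), a variant that the labels do not define, and untreated cells (control). In all groups the cells had 44 h after plating and then 24 h without serum. MEF2C is a transcription factor of muscle genes, and its alternatively spliced γ segment is known as a repressor domain. No group received a virus without an insert, so any difference from control includes the response to adenovirus. The labels number the arrays as biological replicates without saying whether they came from separate cell isolations, so the p-values measure the spread between these samples.

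The respiratory chain passes electrons from NADH through complex I, or from succinate through complex II, to coenzyme Q. From there they pass through complex III and cytochrome c to complex IV, the cytochrome oxidase, which reduces oxygen. Complexes I, III and IV pump protons, and the ATP synthase uses the gradient to make ATP. Most subunits are encoded in the nucleus and imported, and the rest are made inside the organelle from mitochondrial DNA. The beating heart draws most of its ATP from this pathway, and its mitochondria mature and multiply around birth.

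Array medians lay between 5.333 and 5.534, and the arrays of a group correlated at a mean r of 0.9921 to 0.9952 over all probe sets. The γ+ replicate 2 had the lowest of these values. Exactly equal values occurred in 21 of 21 pairs of arrays within 3 sets, namely control with 23/24, γ+, and γ-. They occurred in 0 of 45 pairs across the sets, so the 23/24 group against control is the comparison made within a set of arrays that share such values. Whether the 3 sets were normalized separately is not given here. If they were, every comparison of γ+ or γ- with another group is across separately normalized sets, and its fold changes include any difference between the sets' scales. Genes were called at a limma adjusted p below 0.05 (Benjamini-Hochberg over all 10025 genes), with 1 model over the 4 groups.

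Most subunits of every complex were lower in γ+ cultures than in control cultures. Of the 74 tested, 70 were called lower and 0 higher, with a median log2 fold change of -0.62, a level 0.651 times that in control. Over all 10025 genes, 38.7% were called lower and 26.2% higher, and the median was -0.07. The standard errors of the subunits' fold changes ran from 0.04 to 0.12 (n = 3 per group). The change ranged from -1.30 for Cox8b to 0.12 for Atp5f1c. In 72 of the 74 the 3 γ+ arrays did not overlap the 3 control arrays in either direction, which was so for 66.6% of all genes. Among the 72, Atp5f1c and Cox6b2 had the γ+ arrays higher, and neither was called. Median centring moved the split of all calls from 2631 higher and 3878 lower to 3187 higher and 3041 lower, and with it 69 subunits were lower and 1, Atp5f1c, higher.

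The medians of the complexes lay close together. They were -0.61 in complex I (31 of 32 called lower), -0.70 in complex II (4 of 4), -0.67 in complex III (7 of 7), -0.59 in complex IV (13 of 14) and -0.66 in complex V (14 of 16). Cycs, the only gene of the soluble carrier, changed by -0.94. Under median centring, quantile normalization and cyclic loess normalization the median of each of the 5 complexes stayed below 0, between -0.46 and -0.61.

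**Figure D1:**
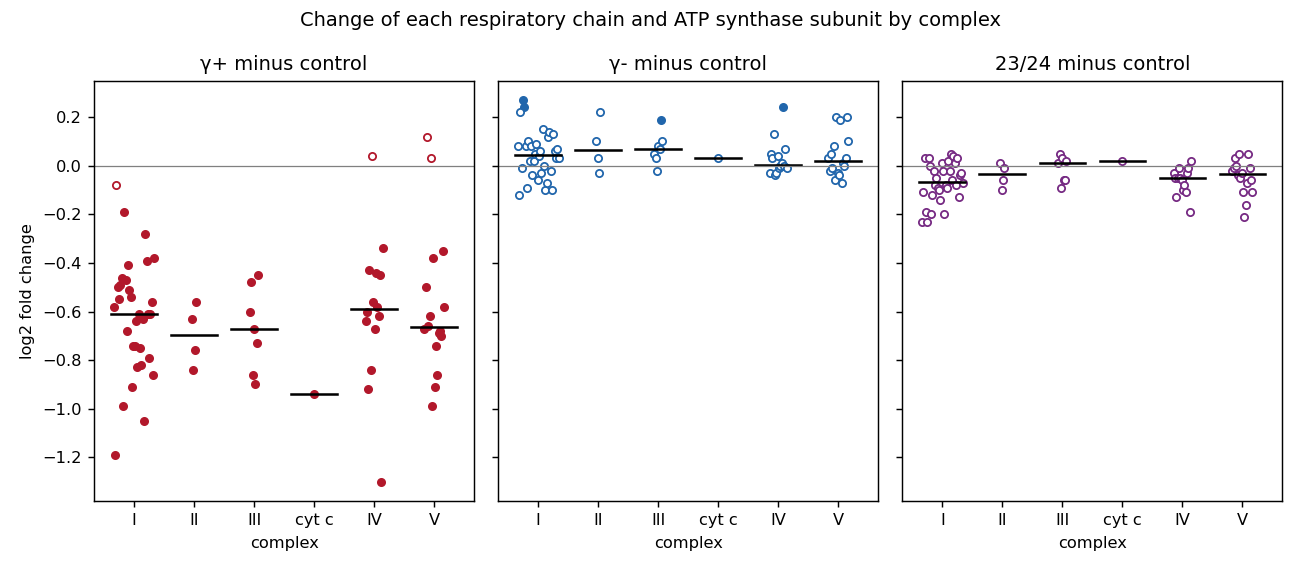
Log2 fold change of each of the 74 tested subunits against control, in γ+ (left), γ- (middle) and 23/24 cultures (right), by complex on the horizontal axis (cyt c is cytochrome c). Filled points passed a limma adjusted p of 0.05, open points did not, and black lines are medians; in γ+ cultures 70 points are filled and all lie below 0, while 4 are filled for γ- and 0 for 23/24.

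Each γ+ array had a lower subunit median than each of the other 9 arrays. The median over the 74 subunits, as a difference from the control mean, was -0.57, -0.74 and -0.58 on the γ+ arrays. It was 0.08, 0.01 and 0.03 on the γ- arrays, -0.05, -0.06 and -0.01 on the 23/24 arrays, and 0.01, -0.01 and 0.00 on the control arrays. The other 9 arrays lay within 0.08 of the control mean. The lowest γ+ array, replicate 2, was also the array with the lowest correlation within its group, and without it the median fold change against control was -0.57.

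**Figure D2:**
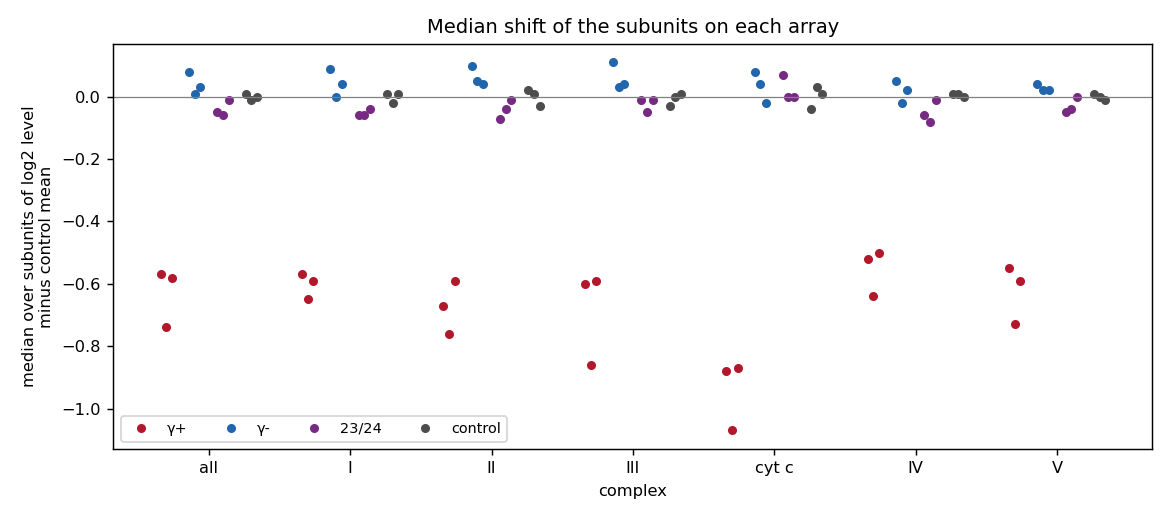
Median over the tested subunits of the log2 level minus the control mean, 1 point per array, for all subunits and for each complex (horizontal axis). The 3 γ+ arrays lie between -0.50 and -1.07 in every complex, and the other 9 arrays lie between -0.08 and 0.11.

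Markers of cell types were mostly lower in γ+ cultures too. All 10 cardiomyocyte markers, which include Tnnt2 and Myh6, were called lower in γ+ than in control, with a median of -1.21, and their mean level per array was 10.88 to 10.96 in γ+ against 12.14 to 12.19 in control. All 9 fibroblast markers were also lower (median -1.44; mean level per array 7.86 to 8.05 in γ+ and 9.34 to 9.36 in control), as were 4 of 5 smooth muscle (median -0.66), 6 of 6 endothelial (median -0.59) and 3 of 5 macrophage or leukocyte markers (median -0.23). Over all genes 38.7% were called lower and 26.2% higher. No defining marker of the labelled cell type was below the filter. Of 8 macrophage or leukocyte markers with a probe set, 5 were above it and tested. In γ- and 23/24 cultures the mean level of the cardiomyocyte markers per array was 12.20 to 12.22 and 12.14 to 12.20. Other markers differed between γ- and control: 2 of 6 endothelial (median -0.17), 3 of 5 macrophage or leukocyte (median -0.30) and 1 of 9 fibroblast markers (median -0.10) were called lower. Among cardiomyocyte markers 1 of 10 was called higher, and no smooth muscle marker was called. Over all genes 3.88% were called lower and 3.06% higher in γ- than in control. No marker was called in 23/24 against control. In such cultures fewer cells of a type and less RNA per cell cannot be told apart, and the part of these markers in the subunits' change was not tested.

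Complex I has a core that carries the flavin and the iron-sulfur clusters and a shell of accessory subunits. All 6 core subunits measured were lower in γ+ cultures, with a median of -0.71, and so were 25 of 26 accessory subunits, with a median of -0.56. Ndufs3, a core subunit of the arm that reduces coenzyme Q, had log2 levels of 8.22, 7.89 and 8.22 on the γ+ arrays, against 9.17, 9.10 and 9.23 on the control arrays. The groups lay far apart, and the change was -1.05 ± 0.08 (SE, n = 3 per group; limma adjusted p = 1.5e-08). The accessory subunit Ndufa10 was at 5.79, 5.64 and 5.73 in γ+ and at 6.91, 6.89 and 6.94 in control. Its change of -1.19 ± 0.07, a level 0.437 times that in control, was the largest of the complex (limma adjusted p = 3.7e-10). Ndufa6 and Ndufb3, accessory subunits of the matrix arm and of the membrane arm, changed by -0.99 ± 0.06 and -0.91 ± 0.06. The core subunits Ndufv1 and Ndufv2, which sit where NADH is oxidised and were named after their values were seen, changed by -0.56 and -0.86.

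The exceptions in complex I were accessory subunits. Ndufa11, a membrane arm subunit, had levels of 8.56, 8.61 and 8.65 in γ+ cultures, against 8.77, 8.77 and 8.52 in control. These values overlap, the change was -0.08 ± 0.07 and the limma adjusted p was 0.32; it was 0.01 under median centring, and called lower, at -0.16, without control replicate 3. Ndufa7 was called lower, at 7.79, 7.93 and 7.81 in γ+ against 8.06, 8.09 and 7.96 in control (-0.19 ± 0.06, limma adjusted p = 0.015). That call was lost under median centring (-0.11) and without control replicate 2 or γ+ replicate 1 (-0.17 each). The probe set with the symbol Ndufs6-ps1, a pseudogene name, changed by -0.61 ± 0.12, and whether it reads the parent gene was not tested (named after its value was seen).

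Complex II, the succinate dehydrogenase, is encoded wholly in the nucleus and also belongs to the citric acid cycle. All 4 of its subunits were lower in γ+ cultures. The iron-sulfur subunit Sdhb was at 9.72, 9.77 and 9.62 in γ+ and at 10.70, 10.51 and 10.42 in control, a change of -0.84 ± 0.07. The membrane anchors Sdhc and Sdhd changed by -0.76 ± 0.06 and -0.56 ± 0.07, and Sdha, the flavoprotein that oxidises succinate, at 10.20, 10.07 and 10.27 in γ+ and at 10.84, 10.83 and 10.76 in control, by -0.63 ± 0.05 (limma adjusted p from 9e-09 for Sdhc to 1.2e-06 for Sdhd). None of the 4 had overlapping groups.

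In complex III the Rieske iron-sulfur protein Uqcrfs1, which hands electrons on towards cytochrome c, fell most. Its levels were 9.09, 8.76 and 9.13 in γ+ cultures against 9.86, 9.85 and 9.98 in control, a change of -0.90 ± 0.08 (limma adjusted p = 5.2e-08). The core protein Uqcrc1 was at 9.48, 9.21 and 9.62 in γ+ and at 10.28, 10.29 and 10.30 in control, with no overlap. It changed by -0.86, its partner Uqcrc2 by -0.67, and the hinge protein Uqcrh by -0.73. The smallest changes in the complex were -0.45 for Uqcrq and -0.48 for Uqcrb. Cycs, the somatic cytochrome c that ferries electrons to complex IV, was at 9.92, 9.73 and 9.92 in γ+ and at 10.75, 10.82 and 10.81 in control. The γ+ level was 0.521 times the control level (limma adjusted p = 3.7e-10).

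Complex IV has subunits with heart and skeletal muscle isoforms beside ubiquitous ones. Cox8b, a heart and muscle isoform, fell most of all 74 subunits, with levels of 6.31, 6.67 and 6.36 in γ+ cultures against 8.0, 7.65 and 7.60 in control. The change was -1.30 ± 0.12, a level 0.405 times that in control (limma adjusted p = 5.9e-08). Its ubiquitous counterpart Cox8a was at 11.47, 11.58 and 11.51 in γ+ and at 12.03, 11.91 and 11.98 in control, a change of -0.45 ± 0.06. The muscle isoform Cox6a2, at 11.54, 11.37 and 11.49 in γ+ and at 12.30, 12.34 and 12.30 in control, changed by -0.84 ± 0.05 and the ubiquitous Cox6a1 by -0.43 ± 0.05. Cox5b, a nuclear subunit on the matrix side, was at 9.22, 9.19 and 9.31 in γ+ and at 10.19, 10.07 and 10.23 in control. It changed by -0.92, Cox7a2 by -0.67, Cox4i1 by -0.64, Cox7a2l, a factor of respiratory supercomplexes, by -0.44, and Ndufa4, named for complex I and later assigned to complex IV, by -0.34.

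The log2 difference of the muscle over the ubiquitous isoform, taken within each array, was lower in γ+ cultures for both pairs measured. For Cox6a2 over Cox6a1 it was 0.27, 0.11 and 0.20 on the γ+ arrays and 0.57, 0.62 and 0.64 on the control arrays, a shift of -0.41 ± 0.05 (SE). For Cox8b over Cox8a the shift was -0.85 ± 0.13. The groups did not overlap in either pair, and the two-sided exact permutation p was 0.10 for each, the smallest that 3 against 3 arrays allow. The level of one isoform cannot be set against the other from these probe sets, only the shift between groups. The mean shifts from control were -0.17 in γ- and 0.04 in 23/24 for the first pair, and 0.07 and -0.18 for the second.

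Isoforms of complex IV known mainly from other organs were measured as well. The testis isoform Cox6b2 was at 6.58, 6.62 and 6.58 in γ+ and at 6.55, 6.56 and 6.55 in control, a change of 0.04 ± 0.08 (limma adjusted p = 0.68). The lung isoform Cox4i2, below the filter, differed by 0.02 without a test. Cox8c, a testis isoform also below the filter, averaged 3.60 in both groups. The probe set with the pseudogene symbol Cox6c-ps1, below the filter, averaged 3.68 in γ+ and 4.02 in control.

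The ATP synthase joins a ring in the membrane to a catalytic head. On the probe sets used, Atp5mc1 and Atp5mc3, 2 of the 3 genes for the c subunit that forms the ring, had the largest falls of the complex. A second Atp5mc3 probe set, nearly as bright (mean 11.17 against 11.24), differed by -0.73 without a test, and on it the rank of Atp5mc3 would be lower. Atp5mc1 had levels of 8.60, 9.12 and 8.71 in γ+ cultures against 9.93, 9.67 and 9.80 in control, a change of -0.99 ± 0.10. Atp5mc3 was at 10.68, 10.45 and 10.65 in γ+ and at 11.50, 11.48 and 11.54 in control, a change of -0.91 ± 0.06, and the third gene, Atp5mc2, named after its value was seen, changed by -0.38 ± 0.07. The small membrane subunits Atp5mg and Atp5me, which lie at the contact between paired synthases, changed by -0.86 and -0.74. All 4 stalk subunits measured were lower, with a median of -0.63.

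The catalytic head of the synthase held called and uncalled subunits. Its α and β subunits, Atp5f1a and Atp5f1b, changed by -0.67 ± 0.07 and -0.50 ± 0.07, and 4 of the 5 head and central stalk subunits were called lower. Atp5f1c, the γ subunit that turns inside the head, was at 8.75, 8.69 and 8.83 in γ+ cultures against 8.67, 8.62 and 8.60 in control. These values do not overlap, with the γ+ arrays higher, but the change of 0.12 ± 0.06 missed the threshold (limma adjusted p = 0.064). It passed as higher under median centring (0.21), quantile normalization (0.16), cyclic loess normalization (0.18) and without γ+ replicate 2 (0.16). Atp5if1, the inhibitor that blocks the synthase from running backwards, was at 11.18, 11.18 and 11.20 in γ+ and at 11.23, 11.10 and 11.14 in control. Its change of 0.03 ± 0.05 did not pass (limma adjusted p = 0.63), but it was called higher under quantile (0.14) and cyclic loess normalization (0.18).

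**Figure D3:**
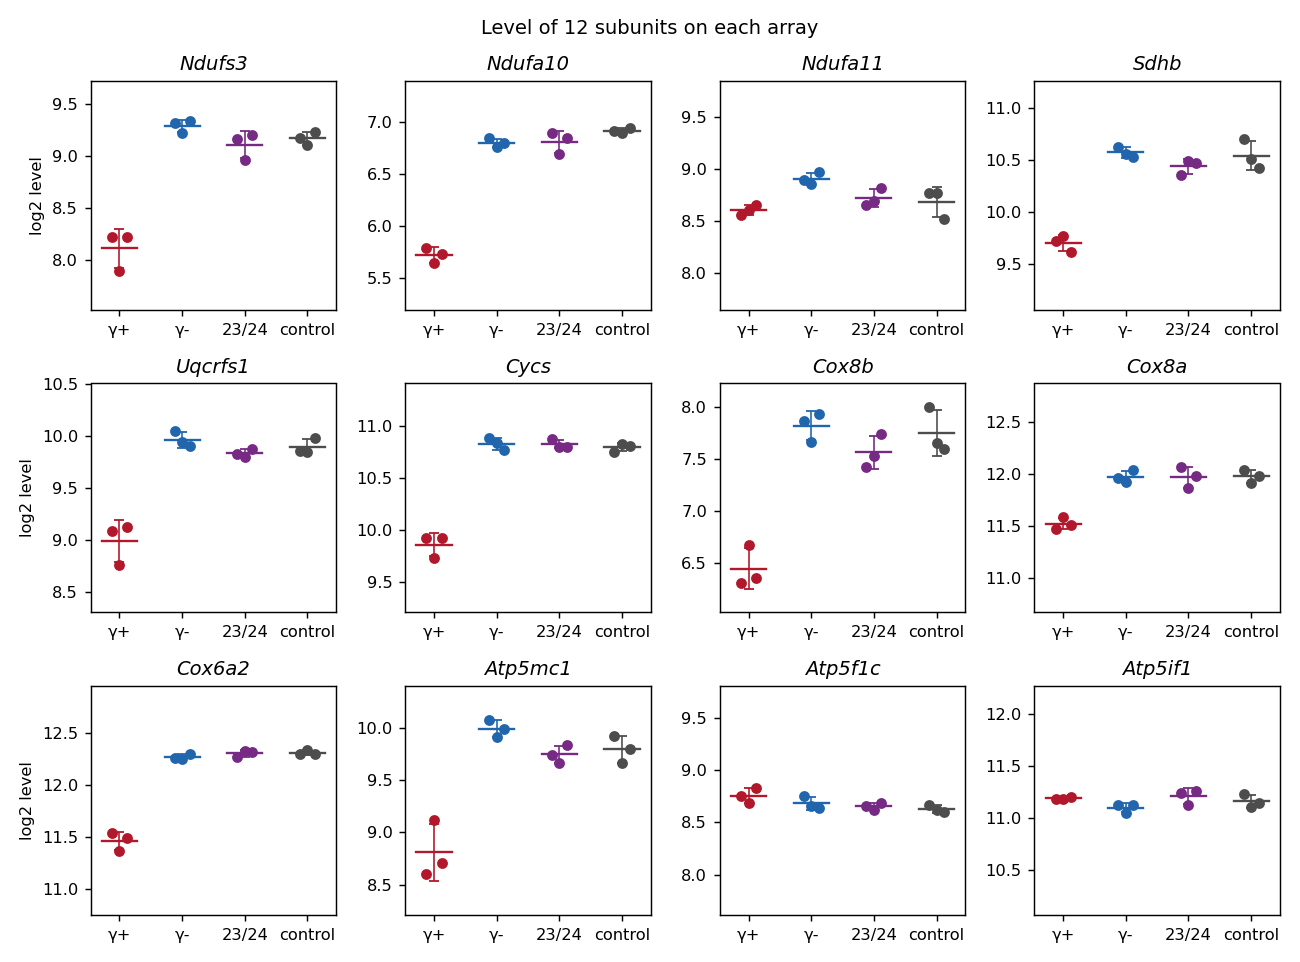
Log2 level of 12 subunits on each array (points), with the group mean (line) and SD (bar), for γ+, γ-, 23/24 and control cultures; every panel spans the same range of log2 units. In 9 of the panels the γ+ arrays lie below all others, while Ndufa11, Atp5f1c and Atp5if1 show no such gap.

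The promoters of 6 of these genes are shown because they stand for the ends of the range: the largest falls in complexes IV, I and V and in cytochrome c, and the 2 synthase genes that were not called. Each runs 5′ to 3′ on the gene's strand, from 250 bases before to 20 bases after the annotated start, from RefSeq on GRCr8. Capitals mark matches to 8 motifs on either strand. The motifs were GCGCANGCG for NRF-1, CCGGAAG for GABP, AAGGTCA for the ERR receptors, GGGCGG for Sp1, AAGATGGC for YY1, TATAAA for the TATA box, CCAAT for the CCAAT box, and the MEF2 motif; matches may overlap. Cox8b lies at chr1:205408254-205408523 (minus strand), Ndufa10 at chr9:100489245-100489514 (minus), Atp5mc1 at chr10:81523326-81523595 (minus), Cycs at chr4:80984748-80985017 (minus), Atp5f1c at chr17:73333435-73333704 (plus) and Atp5if1 at chr5:150026658-150026927 (minus).
Cox8b: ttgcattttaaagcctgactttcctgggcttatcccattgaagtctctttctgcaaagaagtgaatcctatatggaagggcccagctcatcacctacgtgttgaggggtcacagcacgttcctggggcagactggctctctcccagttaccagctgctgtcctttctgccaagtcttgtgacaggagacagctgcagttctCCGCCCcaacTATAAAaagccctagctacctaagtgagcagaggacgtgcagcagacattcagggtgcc
Ndufa10: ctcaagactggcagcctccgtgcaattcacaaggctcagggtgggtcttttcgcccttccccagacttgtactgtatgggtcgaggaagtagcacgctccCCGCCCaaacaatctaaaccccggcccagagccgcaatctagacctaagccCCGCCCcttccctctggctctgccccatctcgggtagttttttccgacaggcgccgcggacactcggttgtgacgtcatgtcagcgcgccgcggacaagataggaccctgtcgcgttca
Atp5mc1: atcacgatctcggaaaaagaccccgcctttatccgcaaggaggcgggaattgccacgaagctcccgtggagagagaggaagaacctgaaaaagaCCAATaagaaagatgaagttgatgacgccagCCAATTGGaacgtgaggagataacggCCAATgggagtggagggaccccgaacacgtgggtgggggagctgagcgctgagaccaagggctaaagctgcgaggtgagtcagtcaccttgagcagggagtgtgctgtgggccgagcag
Cycs: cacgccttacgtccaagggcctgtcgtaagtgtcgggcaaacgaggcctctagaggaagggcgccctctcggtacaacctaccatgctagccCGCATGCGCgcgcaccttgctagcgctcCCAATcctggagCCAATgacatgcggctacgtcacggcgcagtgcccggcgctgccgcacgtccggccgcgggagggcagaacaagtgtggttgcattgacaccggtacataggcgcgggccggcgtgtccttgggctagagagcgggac
Atp5f1c: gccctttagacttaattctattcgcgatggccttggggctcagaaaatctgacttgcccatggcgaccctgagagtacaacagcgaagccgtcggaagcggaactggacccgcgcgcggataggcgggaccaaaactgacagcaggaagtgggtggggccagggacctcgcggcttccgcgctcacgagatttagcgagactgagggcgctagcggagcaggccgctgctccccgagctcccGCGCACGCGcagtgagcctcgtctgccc
Atp5if1: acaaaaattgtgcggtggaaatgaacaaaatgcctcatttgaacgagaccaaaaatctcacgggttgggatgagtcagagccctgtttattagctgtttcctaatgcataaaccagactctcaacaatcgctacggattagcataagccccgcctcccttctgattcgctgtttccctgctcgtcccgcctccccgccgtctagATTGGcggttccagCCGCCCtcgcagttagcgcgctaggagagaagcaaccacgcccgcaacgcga
The windows held different matches. Cox8b had an Sp1 and a TATA match, Ndufa10 2 Sp1 matches and Atp5mc1 4 CCAAT matches, of which 2 overlap on opposite strands. Cycs had an NRF-1 match and 2 CCAAT matches. Of the genes not called, Atp5f1c had an NRF-1 match across the start and Atp5if1 a CCAAT and an Sp1 match.

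Promoter windows of 300 bases, from 250 before to 50 after the start, were found for 67 of the 77 subunit genes. An NRF-1 match was in 26.9% of them, against 5.8% of all 33469 windows and 13.0% of the windows of 8319 tested genes. GABP matches were in 29.9% of subunit windows (8.7% of all, 17.5% of tested genes), YY1 matches in 19.4% (3.2% and 5.5%) and ERR matches in 14.9% (4.6% and 2.8%). Sp1 matches were in 43.3% (33.1% and 63.1%), CCAAT boxes in 35.8% (37.5% and 37.9%) and TATA boxes in 7.5% (14.2% and 6.9%). A MEF2 match was in 1 window, 1.5%, against 3.3% of all and 1.4% of tested genes. The motif read YTAWWWWTAR, with Y for C or T, W for A or T and R for A or G. That window was of Cox6a2, which changed by -0.84 in γ+ cultures, and a part of the match in this change was not tested. The medians of the change in γ+ cultures were -0.54 with and -0.64 without NRF-1, -0.67 and -0.62 for GABP, and -0.59 and -0.64 for ERR. A match describes letters in the window and does not show that a factor binds there.

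Subunit probe sets were bright, so their change was set beside that of other genes of like signal. Among probe sets with a mean log2 level above 11, 19 of 20 subunits were lower in γ+ than in control, against 131 of 242 other genes (54.1%). Between 10 and 11 it was 15 of 15 subunits against 209 of 391 others (53.5%), and between 9 and 10, 20 of 20 against 410 of 910 (45.1%). In the dimmer bands it was 11 of 13 and 5 of 6 subunits, against 41.9% and 35.0% of others. The share of other genes that were lower was higher in the brighter bands, and in each band the subunits' share was above it.

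**Figure D4:**
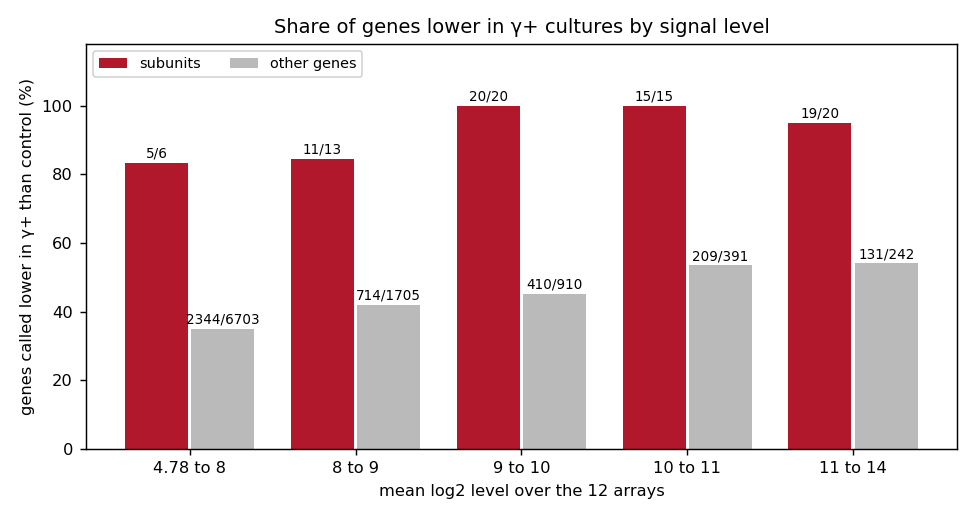
Percent of genes called lower in γ+ than in control (limma adjusted p below 0.05), for subunits and for all other tested genes, by mean log2 level over the 12 arrays. Numbers above the bars are called over tested; the subunits' bars are taller in all 5 bands.

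Against the form without the γ segment, the γ+ cultures were low in subunits of every complex. Of 74, 71 were lower and 0 higher than in γ- cultures, with a median of -0.68; of all genes 37.5% were lower and 26.7% higher. Ndufa11, at 8.89, 8.86 and 8.97 in γ- cultures, joined the genes called lower in γ+. Atp5f1c (0.07), Atp5if1 (0.09) and Cox6b2 (0.07) were not called. By complex, 32 of 32 were lower in complex I (median -0.67), 4 of 4 in complex II (-0.76), 7 of 7 in complex III (-0.75), 13 of 14 in complex IV (-0.60) and 14 of 16 in complex V (-0.69). Cox8b was at 6.31, 6.67 and 6.36 in γ+ and at 7.87, 7.66 and 7.93 in γ- cultures, and Atp5mc1 at 8.60, 9.12 and 8.71 in γ+ and at 10.08, 9.92 and 9.99 in γ-. Neither gene's groups overlapped. Cox8b changed by -1.37 ± 0.12, Atp5mc1 by -1.19 ± 0.10 and Ndufs3 by -1.18 ± 0.08. These values share the γ+ arrays with the comparison against control and are no independent count.

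Against the 23/24 cultures, 69 subunits were lower and 0 higher in γ+ cultures, with a median of -0.56; of all genes 37.9% were lower and 28% higher. Ndufa7 (-0.07 ± 0.06), Ndufa11 (-0.11), Atp5f1c (0.10), Atp5if1 (-0.02) and Cox6b2 (0.09) were not called. Complexes I to V had medians of -0.52 (30 of 32 lower), -0.67 (4 of 4), -0.67 (7 of 7), -0.52 (13 of 14) and -0.60 (14 of 16). Cox8b was at 6.31, 6.67 and 6.36 in γ+ and at 7.42, 7.53 and 7.74 in 23/24 cultures, and Ndufa10 at 5.79, 5.64 and 5.73 in γ+ and at 6.89, 6.69 and 6.84 in 23/24. The γ+ arrays lay below the 23/24 arrays for both. Cox8b changed by -1.11 ± 0.12, Ndufa10 by -1.08 ± 0.07 and Cycs by -0.97 ± 0.06. Median centring moved the median of all genes in this comparison from -0.071 to 0.066 and the split of all calls from 2804 higher and 3795 lower to 3703 higher and 2628 lower. Relative to the median of all genes the subunits' median was -0.49, a difference that centring cannot change.

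The γ- cultures were close to control in most subunits. Of 74, 4 were called higher and 0 lower in γ-, with a median of 0.03; of all genes 3.06% were higher and 3.88% lower, and 11 of the 74 subunits had an unadjusted p below 0.05, as had 2288 of the 10025 genes. The complex I subunit Ndufa2 was at 7.84, 7.63 and 7.83 in γ- and at 7.41, 7.52 and 7.57 in control, a change of 0.27 ± 0.07. Cox7c, a small subunit of complex IV, was at 9.70, 9.57 and 9.63 in γ- and at 9.48, 9.43 and 9.26 in control (0.24 ± 0.06). Uqcrh, the hinge protein, was at 11.71, 11.69 and 11.73 in γ- and at 11.55, 11.51 and 11.51 in control (0.19 ± 0.05). The groups did not overlap for these genes, but they did for Ndufa3, at 10.25, 10.04 and 10.20 in γ- and at 10.06, 9.92 and 9.81 in control (0.24 ± 0.07). The limma adjusted p was 0.032 to 0.049, all 4 calls were lost under median centring (0.064 to 0.0957), and with an array left out 0 to 2 of the 74 subunits were called.

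Cox8c, the testis isoform below the filter, was at 4.36, 4.19 and 4.39 in γ- cultures against 3.61, 3.62 and 3.58 in control. It differed by 0.71 without a test, and the γ- arrays were the highest of the 12.

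In the 23/24 cultures no subunit was called against control. The limma counts were 0 higher and 0 lower of 74, with 9 at an unadjusted p below 0.05 and a median of -0.05; of all genes 0% were called in either direction, and 899 had an unadjusted p below 0.05. Quantile and cyclic loess normalization each called 1 of all genes. The fold changes ran from -0.23 to 0.05, and the 95% confidence intervals reached from -0.47 to 0.20 at their widest. For the 5 subunits that fell most in γ+ cultures, the difference of 23/24 from control was -0.19 ± 0.12 for Cox8b, -0.11 ± 0.07 for Ndufa10, -0.06 ± 0.08 for Ndufs3, -0.20 ± 0.06 for Ndufa6 and -0.05 ± 0.10 for Atp5mc1. The Ndufa6 arrays were at 8.34, 8.36 and 8.40 in 23/24 and at 8.61, 8.54 and 8.53 in control. The groups did not overlap for Ndufa6, with 23/24 lower, and overlapped for Cox8b, Ndufs3 and Atp5mc1. Ndufa10 was at 6.89, 6.69 and 6.84 in 23/24 and at 6.91, 6.89 and 6.94 in control, so its groups met at 6.89 as rounded. The limma adjusted p for Ndufa6 was 0.35.

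Between γ- and 23/24 cultures, 11 of 74 subunits were called higher in γ- and 0 lower, with a median of 0.09; of all genes 4.16% were higher and 3.94% lower. Ndufa2 differed most, at 7.84, 7.63 and 7.83 in γ- against 7.29, 7.22 and 7.31 in 23/24 (0.49 ± 0.07, limma adjusted p = 0.0015). Atp5me, a small membrane subunit of the synthase, was at 9.45, 9.41 and 9.37 in γ- and at 9.06, 8.87 and 9.11 in 23/24 (0.39 ± 0.08, limma adjusted p = 0.0085). The other 9 were Uqcrh, Cox7c, Cox6a1, Ndufa7, Ndufb3, Ndufb6, Ndufb8, Sdhd and Atp5po, the oligomycin sensitivity protein of the stalk, at 0.18 to 0.27. With an array left out 2 to 9 subunits were called, and with the 6 compared arrays alone 25. Median centring moved the split of all calls in this comparison from 417 higher and 395 lower to 698 higher and 198 lower.

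Other genes of the pathway were measured from lists. The assembly factors, which build the complexes and are not part of them, had called genes in both directions: 18 of 32 were lower in γ+ than in control and 2 higher, with a median of -0.26. Ecsit, an assembly factor of complex I, was at 7.13, 7.03 and 6.97 in γ+ and at 7.82, 7.86 and 7.74 in control (-0.76 ± 0.07), and Cox17, the copper chaperone of complex IV, changed by -0.69 ± 0.07. Sco1, another copper chaperone of complex IV, was higher (0.63 ± 0.09; named after its value was seen). For coenzyme Q synthesis 5 of 12 genes were lower and 2 higher (median -0.15), with Coq9 at -0.92 ± 0.09 and Coq8a at -0.61 ± 0.07.

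A further list held enzymes of the citric acid cycle and pyruvate dehydrogenase, regulators of the latter, and Pc, Mpc1 and Mpc2. Of its 24 genes, 18 were lower in γ+ than in control and 3 higher, with a median of -0.64. Dlat, the transacetylase of pyruvate dehydrogenase, was at 8.72, 8.56 and 8.71 in γ+ and at 9.85, 9.73 and 9.75 in control. Pdk2, a kinase that inhibits that complex, changed by -1.28 ± 0.05. Its relatives Pdk1 and Pdk3, named after their values were seen, were higher. Pdk1 was at 8.33, 8.47 and 8.34 in γ+ and at 8.16, 8.09 and 8.08 in control. Pdk3 was at 8.58, 8.60 and 8.53 in γ+ and at 8.26, 8.30 and 8.33 in control. Both were called under all 14 alternatives, and Pdk4 under 0. Another list held 8 genes: the carriers Slc25a3, Slc25a4 and Slc25a5, the channels Vdac1, Vdac2 and Vdac3, the creatine kinase Ckmt1 and the synthase inhibitor Atp5if1. Of these, 7 were lower and 0 higher (median -0.45). The one not called was Atp5if1, which is also counted among the subunits. The mitochondrial creatine kinase Ckmt1 changed by -1.57 ± 0.07 and the phosphate carrier Slc25a3 by -1.02 ± 0.05.

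Genes that maintain and transcribe mitochondrial DNA included several that rose. Of 13 tested, 6 were higher in γ+ than in control and 1 lower, with a median of 0.05. Tfam, which packages and transcribes mitochondrial DNA, was at 7.97, 7.79 and 7.95 in γ+ against 7.42, 7.43 and 7.18 in control, a change of 0.56 (limma adjusted p = 2.5e-05). Polg, the mitochondrial DNA polymerase, changed by 0.40. Both were higher and called under all 14 alternatives. In γ- and 23/24 cultures 0 of the 13 were called against control.

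Transcriptional regulators of mitochondria were split. Of 17 tested, 9 were lower and 5 higher in γ+ than in control, with a median of -0.23. Ppargc1b, a coactivator of the PGC-1 family, was at 6.76, 6.85 and 6.59 in γ+ against 8.24, 8.22 and 8.24 in control, a change of -1.50 ± 0.06 (limma adjusted p = 6.6e-12). Ppara, a receptor for fatty acids, changed by -1.56 ± 0.07 (limma adjusted p = 1.2e-11). The following were named after their values were seen. The coactivator Ppargc1a changed by -0.82 and Pprc1, a further member of the PGC-1 family, by 0.26 (called higher). The muscle regulator Perm1 changed by -1.39, and the oestrogen-related receptors Esrrg and Esrra by -0.96 and -0.23. In contrast, Nrf1, the nuclear respiratory factor, was at 7.89, 7.67 and 7.71 in γ+ and at 7.23, 7.21 and 7.26 in control (0.53 ± 0.07), and Gabpa, a subunit of GABP, was at 8.83, 8.97 and 8.87 in γ+ and at 8.32, 8.36 and 8.12 in control (0.62 ± 0.07). The motifs of these last 2 factors and of the oestrogen-related receptors are among those searched for above.

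Under median centring the medians of these lists were -0.17 for assembly factors, -0.06 for coenzyme Q synthesis, 0.14 for mitochondrial DNA expression and -0.14 for regulators. They were -0.55 for the citric acid cycle and pyruvate dehydrogenase and -0.36 for the list with the carriers and the inhibitor. In γ- against control the medians of the 6 lists lay between -0.08 and 0.05, but some genes were called. Of 32 assembly factors 2 were lower and 4 higher, and of 12 coenzyme Q genes 1 was lower and 1 higher. Of 24 genes in the citric acid cycle list 0 were lower and 2 higher, and of 17 regulators 1 was lower and 1 higher. In the list with the carriers 1 of 8 was lower and 0 higher. Of all genes 3.88% were lower and 3.06% higher in γ-. In 23/24 against control the medians lay between -0.04 and 0.0, with 0 genes called. How many of the list genes changed is given beside the 38.7% and 26.2% of all genes that were lower and higher in γ+ cultures, and the lists were not tested as sets.

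**Figure D5:**
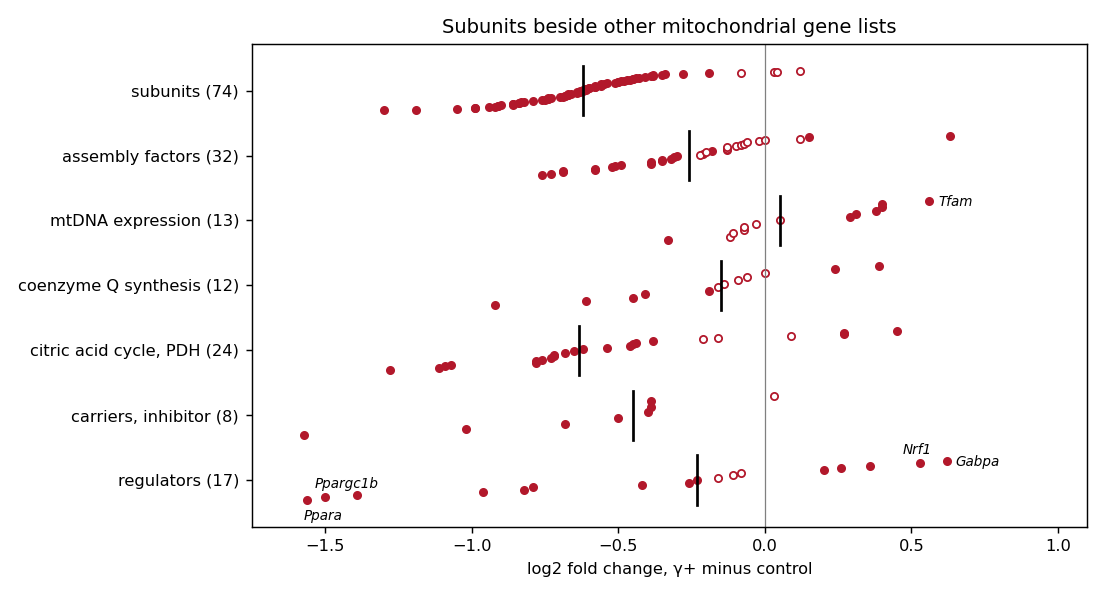
Log2 fold change in γ+ against control cultures of the 74 subunits and of 6 lists of related genes (number tested in brackets). PDH is pyruvate dehydrogenase and mtDNA is mitochondrial DNA. Atp5if1 is shown both among the subunits and in the list of carriers and inhibitor, which also holds Ckmt1 and the Vdac channels. Filled points passed a limma adjusted p of 0.05, open points did not, and black lines are medians; subunits sit mostly below 0, while Tfam, Nrf1 and Gabpa lie above it.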

How the data were processed

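The deposited table holds 1 value per probe set and array for 28826 probe sets on 12 arrays. The authors' values are on a log2 scale, as inferred from their range of 1.09 to 13.89; MAS5 is the tool named, per the submitters' processing notes, and its version and the normalization are not given here. Of the probe sets, 15209 had 1 gene symbol in the platform annotation, 306 several and 13311 none; only the first kind was named. Symbols were looked up in RefSeq by gene identifier, which was found for 15178 of the probe sets with 1 symbol.

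Values were used as deposited. Probe sets above the 40th percentile of the mean (17295) were kept, and the brightest represented each gene. limma 3.58.1 in R 4.3.3 fitted the 4 group means over 12 arrays (8 residual degrees of freedom) with a trended prior. p-values were Benjamini-Hochberg adjusted over 10025 genes. The fit was tested on simulated data. The number of arrays limits the precision.

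The members and lists were chosen with earlier results of these data known. Named subunits were the 4 largest falls and the 2 highest changes per complex against control, those not called there, those called in the other comparisons with γ- or 23/24, those below the filter, and a set of subunits always named, such as Cycs, complex II and the isoforms. From each list the 2 genes with the lowest adjusted p were named. Alternatives were median centring, quantile and cyclic loess normalization, other filters, the mean over probe sets, a fit of the 6 compared arrays alone, a replicate block, and leaving out each array. Promoters came from RefSeq on GRCr8.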

Additional observations from a re-analysis of the deposited data

How the results depend on the processing

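The median log2 fold change of the subunits stayed below 0 for γ+ in every alternative run. Against control it was -0.53 under median centring, -0.53 under quantile and -0.51 under cyclic loess normalization (chosen after seeing the data), and -0.64 to -0.57 with an array left out. Against γ- it was -0.61, -0.59 and -0.57, and -0.73 to -0.62 with an array left out; against 23/24 it was -0.42, -0.49 and -0.48, and -0.60 to -0.52. With an array left out, 69 to 71, 71 and 68 to 69 subunits were lower in these comparisons. For γ- against control 4 subunits were called, but 0 under median centring, 2 with the 60th percentile filter, 2 with the replicate block, 9 with the 6 compared arrays alone and 0 to 2 with an array left out. For γ- against 23/24, 11 became 25 with the 6 arrays and 2 to 9 with an array left out. The causes were not tested. Ndufa11 in γ+ against control turned to 0.01 under median centring. Same-numbered arrays correlated at -0.223 to 0.124 in their deviations, so the numbers were not taken as pairs; the replicate block gave 70, 71 and 69 subunits for γ+ against control, γ- and 23/24, 0 for 23/24 against control and 10 for γ- against 23/24. The scale of the deposited values is inferred, and 3 arrays per group limit what could be detected.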

Other observations

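In the 10 subunit genes with 2 probe sets, both were lower in γ+ than in control, at -0.91 to -0.16, without a test of the second set. The second probe set differed from the first in places. For Ndufb4 the dimmer set differed by 0.46 between γ- and control and the brighter one by -0.06. For Uqcrb the dimmer set differed by 0.36 between γ- and control and the brighter one by 0.03. For Cox5a the dimmer set differed by 0.30 between 23/24 and control and the brighter one by -0.05.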
